A study of Mus musculus with 7 samples.

Results

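Cytosolic ribosomal protein genes were followed in sorted glioma cells of 7 samples. The genes were found by their symbols: Rpl or Rps followed by a number, Rplp0 to Rplp2 and Rpsa, without pseudogenes, the Rps6k kinases and retrogenes whose symbol ends in l. Of 18194 genes with a probe that names 1 gene, 44 were members, 24 of the large (60S) and 20 of the small (40S) subunit. The paralogues Rpl22l1 and Rpl7l1, whose symbols end in a digit, fell under the same rule and are counted among them. For 110 further probes the annotation lists a ribosomal protein together with other genes, mostly pseudogenes, and these were left out, so many ribosomal proteins are not analysed here.

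The cells came from gliomas of early onset and low grade that overexpression of PDGF-B with EGFP had induced on a C57/Bl6 background. Grafting such primary tumour cells into NOD/SCID hosts, which lack functional B and T lymphocytes but keep myeloid cells, gave the secondary gliomas (n = 4). A secondary glioma grafted into NOD/SCID hosts gave the tertiary gliomas (n = 3). All 7 tumours thus share the PDGF-B/EGFP construct and the NOD/SCID host, and all were sorted for EGFP after trypsin dissociation. The labels call the samples biological replicates without tying them to primary tumours, donors, hosts or ages, so p-values measure the spread between these samples. Levels are the authors' log2 values of Affymetrix mouse arrays, 1 for each sample, and precision is bounded by how few arrays there are.

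The cytosolic ribosome is built from ribosomal RNA and one copy of most of its proteins, which the cell makes in matched amounts. The small subunit reads the mRNA and the large subunit joins amino acids, and the P stalk on the large subunit recruits elongation factors. Mammalian mRNAs for these proteins open with a C followed by a run of C and T, the terminal oligopyrimidine (TOP) tract, through which mTOR signalling and the protein Larp1 adjust their translation. Tumour growth commonly draws on this supply, and Myc and mTOR are its best known regulators.

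The start sites of 8 member genes are shown because the tract, through which this family is known to be controlled, stands at their RefSeq start. In RefSeq (GRCm38.p6), 39 of the 44 members had a window of 250 bases before and 50 after a start. Rpl7, Rpl8, Rps14, Rps20 and Rps29 had none. A C followed by at least 4 bases that are each C or T stood exactly at the start in 8 of 45 member windows (17.8%) and in 2.51% of all 32851 windows of the same length. Each line below gives the 15 bases before and the first 15 of the transcript, 5′ to 3′ on the gene's strand, with the tract in capitals.
Rplp2, chr7:141447636-141447665, plus strand: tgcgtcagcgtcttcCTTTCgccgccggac
Rpl14, chr9:120571502-120571531, plus strand: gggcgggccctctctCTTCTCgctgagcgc
Rpl35, chr2:39005117-39005146, minus strand: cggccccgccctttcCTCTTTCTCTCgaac
Rpl38, chr11:114668565-114668594, plus strand: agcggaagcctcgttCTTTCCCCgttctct
Rps6, chr4:86857353-86857382, minus strand: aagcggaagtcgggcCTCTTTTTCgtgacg
Rps10, chr17:27635230-27635259, minus strand: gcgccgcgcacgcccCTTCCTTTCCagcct
Rps18, chr17:33955651-33955680, minus strand: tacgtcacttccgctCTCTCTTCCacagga
Rps27, chr3:90213634-90213663, minus strand: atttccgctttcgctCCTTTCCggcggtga
The letters CTTTC, on the sense strand within 15 bases of the start, stood in 22.2% of member windows and 4.05% of all windows. They overlap the tract in some windows. The letters CCGGAAG, which lie in many binding sites of ETS factors, stood on either strand in 18 of 45 member windows and in 8.86% of all windows. TATAAA before the start, on the sense strand, was in 4.44% of member windows and 7.59% of all windows. These matches describe letters in RefSeq windows, whose starts need not be the ones used in these tumours.

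Across the arrays, the medians of the deposited log2 values lay between 5.57 and 5.64. The 11 tested markers of oligodendrocyte precursors and glioma averaged 10.40 ± 0.20 (SD) in the secondary group and 10.40 ± 0.20 in the tertiary group. Pdgfra lay between 10.73 and 11.15 and Olig2 between 9.65 and 10.63 over the 7 arrays. Microglia and macrophage markers differed: all 19 tested were lower in tertiary gliomas, with list means between 10.43 and 11.20 in the secondary and between 6.13 and 7.09 in the tertiary samples. At most 2 of the 19 lay below the dim filter, a log2 value of 3.99, on any tertiary array. Of 8 neuronal, 7 endothelial and 7 astrocyte markers tested, 0 were called, with median log2 fold changes of 0.015, -0.40 and -0.60. The share of each sorted sample that these cells made up cannot be told apart from their RNA content.

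No ribosomal protein mRNA passed the test between tertiary and secondary gliomas. Of the 44 members 42 lay above the dim filter and were tested, and 0 were called higher or lower in limma at an adjusted p under 0.05. Over all 14454 genes tested, 7.38% were called, 1.04% higher and 6.33% lower. At an unadjusted p under 0.05 there were 0 members, where all genes gave 23.8%, and the lowest unadjusted p of a member was 0.101. Fits with trended variances and with array weights also called 0 members, but each put 3 members at an unadjusted p under 0.05. The lowest adjusted p of a member in limma was 0.177 with trended variances and 0.0920 with array weights. The count of 0 members beside 23.8% of all genes thus holds for the first fit but not for every alternative. At the same threshold, 1 member passed with all probes of a gene averaged and 2 of 22 with plain _at probes alone. Without tertiary glioma 1 the count was 8, and it was 6 without secondary glioma 3 as well. The shares of all genes in these fits are not given here. The median log2 fold change of the members, tertiary minus secondary, was 0.092, beside 0.087 over all genes tested. Members spanned -0.21 to 0.68, with 34 of 42 above 0. Because RMA equalises the arrays, a shift common to most mRNAs would not be seen.

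The width of the intervals sets what these data can show. The 95% interval of the log2 fold change lay within 1 of 0 in 39 of 42 members (92.9%) and in 68.3% of all genes. It lay within 0.5 of 0 in 23 of 42 (54.8%) and in 23.3% of all genes. All 23 were among the 35 members with a mean level at or above 10, and 0 were among the 7 below it. That level was chosen after the values were seen. For some of the 23 a dimmer probe had a larger log2 fold change, as given below. The distance from the estimate to either end of the interval had a median of 0.33 in the members and 0.46 in all genes. The 3 members whose interval reached past 1 were Rpl14 (-0.43 to 1.78), Rpl12 (-0.17 to 1.48) and Rps25 (-0.88 to 1.002), all read by probes with a mean under 8.

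**Figure D1:**
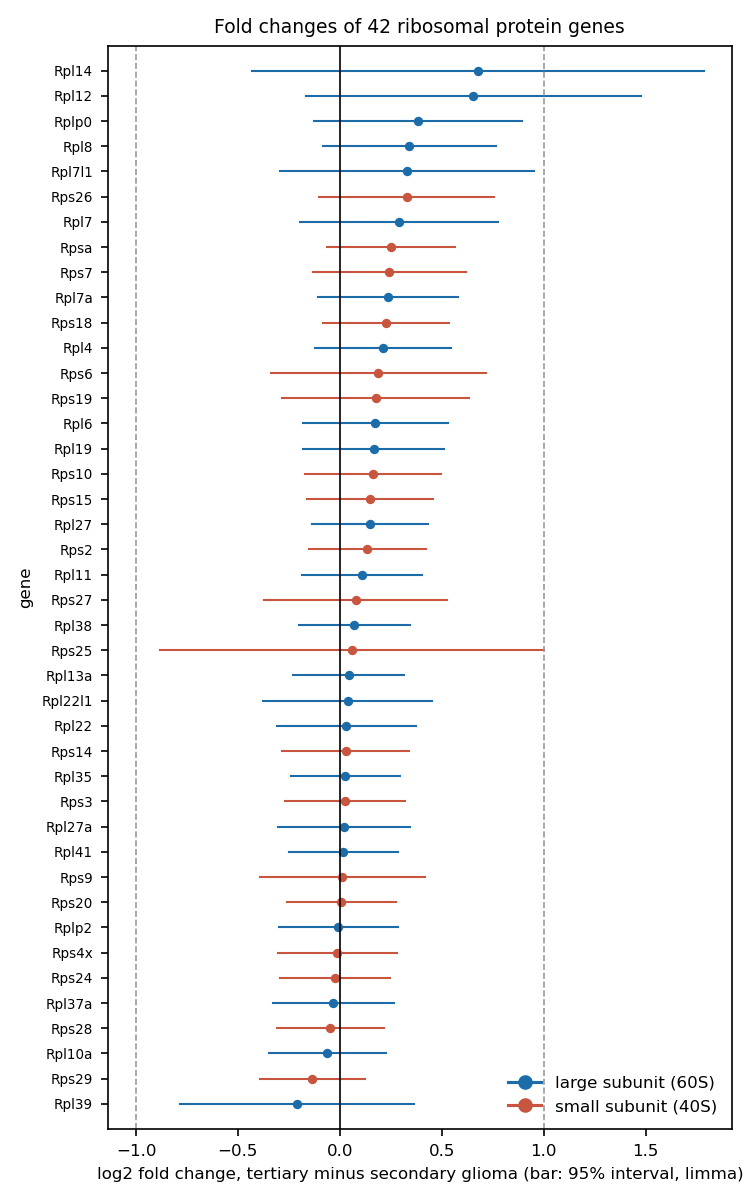
Log2 fold change of the 42 tested ribosomal protein genes, tertiary minus secondary glioma, with 95% intervals from limma (n = 3 and 4). Points lie between -0.21 and 0.68, every interval includes 0, and only those of Rpl12, Rpl14 and Rps25 pass the dashed line at 1.

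Large subunit members had a median log2 fold change of 0.11 (23 tested, 19 above 0), and small subunit members one of 0.077 (19 tested, 15 above 0). The mean level of the large subunit members was 10.96 ± 0.08 (SD) in the secondary group and 11.12 ± 0.22 in the tertiary group. That of the small subunit members was 10.97 ± 0.09 and 11.06 ± 0.21. Both subunits had overlapping groups, and tertiary glioma 2 was the highest sample in each.

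The 3 tested P stalk genes spanned log2 fold changes from -0.0070 to 0.66. Rplp0, the stalk base and a common reference gene, had log2 levels of 10.96, 11.24, 11.12 and 11.21 in secondary gliomas 1 to 4 and of 11.003, 11.92 and 11.63 in tertiary gliomas 1 to 3. Tertiary gliomas 2 and 3 lay above every secondary glioma and tertiary glioma 1 lay among them. Its log2 fold change was 0.38 ± 0.22 (SE; adjusted p = 0.328 in limma).
Rpl12, which binds at the foot of the stalk, was at 7.50, 7.28, 6.11 and 7.15 in the secondary and at 7.21, 8.07 and 7.71 in the tertiary samples. Secondary glioma 3 stood lowest and the groups overlapped, with a log2 fold change of 0.66 ± 0.35 (adjusted p = 0.303).
Rplp2, an acidic stalk protein, was level at 12.52, 12.65, 12.66 and 12.64 in secondary and 12.48, 12.76 and 12.59 in tertiary gliomas (log2 fold change -0.0070 ± 0.13, adjusted p = 0.981). Rpl11, which with the 5S ribosomal RNA can bind Mdm2 when ribosome assembly fails, was at 11.56, 11.78, 11.73 and 11.75 against 11.73, 11.95 and 11.76 (0.11 ± 0.13, adjusted p = 0.648).

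The largest positive log2 fold changes beside Rpl12 and Rplp0 were those of Rpl14, Rpl8 and Rpl7l1. Rpl14, a large subunit protein, was at 6.44, 6.96, 5.95 and 7.33 in secondary and at 6.28, 8.05 and 7.73 in tertiary gliomas (0.68 ± 0.48, adjusted p = 0.426). It varied by more than 1 within each group.
Rpl8, a protein near the catalytic centre of the large subunit, was at 10.16, 10.55, 10.37 and 10.55 in the secondary and at 10.45, 11.06 and 10.73 in the tertiary samples (0.34 ± 0.18, adjusted p = 0.301). Rpl7l1, a paralogue of Rpl7, was at 7.87, 7.90, 7.79 and 8.22 against 7.60, 8.68 and 8.54 (0.33 ± 0.27, adjusted p = 0.492). In both, tertiary gliomas 2 and 3 lay above all secondary gliomas and tertiary glioma 1 did not.
Rps26, a small subunit protein that is mutated in some patients with Diamond-Blackfan anaemia, had the same order, with 11.35, 11.50, 11.35 and 11.51 in secondary and 11.33, 11.99 and 11.94 in tertiary gliomas (0.33 ± 0.19, adjusted p = 0.324). Without tertiary glioma 1 the calls were 3 higher and 0 lower, namely Rps26 (0.54, adjusted p = 0.0421), Rplp0 (0.64, adjusted p = 0.0429) and Rpl7l1 (0.67, adjusted p = 0.0454). In that comparison 781 genes were called higher in all, beside 151 with every sample.

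The most negative log2 fold changes were those of Rpl39, Rps29, Rpl10a, Rps28 and Rpl37a. Rpl39, a very short X-linked protein that lines the exit tunnel, was at 7.34, 7.15, 6.75 and 6.64 in secondary and at 7.22, 6.48 and 6.58 in tertiary gliomas (-0.21 ± 0.25, adjusted p = 0.644). It was the 1 tested member with its lowest value in tertiary glioma 2.
Rps29, a zinc-binding protein of the small subunit head, was at 12.76, 12.72, 12.82 and 12.78 in the secondary and at 12.63, 12.63 and 12.65 in the tertiary samples (-0.14 ± 0.11, adjusted p = 0.493). It was the 1 of 42 members (2.38%) whose groups did not overlap, where 21.9% of all genes did not. All 3 Rps29 probes had a negative log2 fold change.
For Rpl10a, Rps28 and Rpl37a the log2 fold changes were -0.062 ± 0.12, -0.047 ± 0.11 and -0.032 ± 0.13. The other X-linked member, Rps4x, was at -0.014 ± 0.13, with 11.64, 11.65, 11.72 and 11.71 in secondary and 11.50, 11.79 and 11.72 in tertiary gliomas.

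None of the 6 tested members with known roles outside the ribosome was called, with log2 fold changes from 0.024 to 0.25. Rps6, the substrate of the mTOR-activated S6 kinases, was at 8.49, 8.24, 8.29 and 8.37 in the secondary and at 8.02, 9.02 and 8.57 in the tertiary samples (log2 fold change 0.19 ± 0.23, adjusted p = 0.654). On this probe, tertiary gliomas 1 and 2 held the lowest and the highest value. A dimmer Rps6 probe, with a mean of 4.61, was at 0.73 ± 0.28 (adjusted p = 0.176 in limma over all probes). There tertiary glioma 1, at 5.18, lay above every secondary glioma.
Rpsa, also known as the laminin receptor precursor, was at 12.01, 11.99, 11.90 and 12.09 against 12.07, 12.44 and 12.22 (0.25 ± 0.14, adjusted p = 0.305). Rpl22, which is needed for T cell development, had 11.82, 11.96, 12.02 and 12.03 against 11.78, 12.23 and 11.96 (0.032 ± 0.15).
Rps3, which also takes part in DNA repair, was at 0.024 ± 0.13, Rpl13a, a part of the interferon gamma-activated translation inhibitor, at 0.042 ± 0.12 and Rpl38, needed for the translation of some Hox mRNAs, at 0.071 ± 0.12. The 11 tested genes mutated in Diamond-Blackfan anaemia spanned -0.14 to 0.33 with a median of 0.11, and 4 proteins of the peptide exit tunnel spanned -0.21 to 0.21. Of the proteins listed for the head and mRNA path of the small subunit, 11 were tested, with a median of 0.14 and 9 above 0. The 8 members shown above with a tract at the start spanned -0.0070 to 0.68 with a median of 0.12, beside 0.11 in the 29 tested members whose windows lacked one. RefSeq starts need not be the ones used in these tumours, so this split cannot compare mRNAs with and without a tract.

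Single samples separated the ribosomal protein mRNAs more than the groups did. Tertiary glioma 2 held the highest of the 7 values in 36 of 42 members (85.7%), where it did so in 22.3% of all genes tested. The share was not particular to the members among the lists given below. It was 88.2% in mitochondrial ribosomal proteins, 87% in ribosome biogenesis factors and 79.2% in initiation and elongation factors without TOP mRNAs. In the list with TOP mRNAs it was 61.1%, and in proliferation markers 40%. Tertiary glioma 2 lay above every secondary glioma in 38 members (90.5%) and in 36.0% of all genes. Tertiary glioma 1 lay below it in 41 of 42, with a median gap of 0.35 on the log2 scale, and in 50.6% of all genes, with a median gap of 0.0067. The lowest value was that of secondary glioma 1 in 20 members and of tertiary glioma 1 in 14, beside 16.4% and 14.1% of all genes. The SD among tertiary gliomas exceeded that among secondary gliomas in 38 of 42 members (90.5%) and in 51.7% of all genes. The samples with the most low values thus came from different groups. Without tertiary glioma 2 the members' median log2 fold change was -0.010, with 20 of 42 above 0, and without tertiary glioma 1 it was 0.18.

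**Figure D2:**
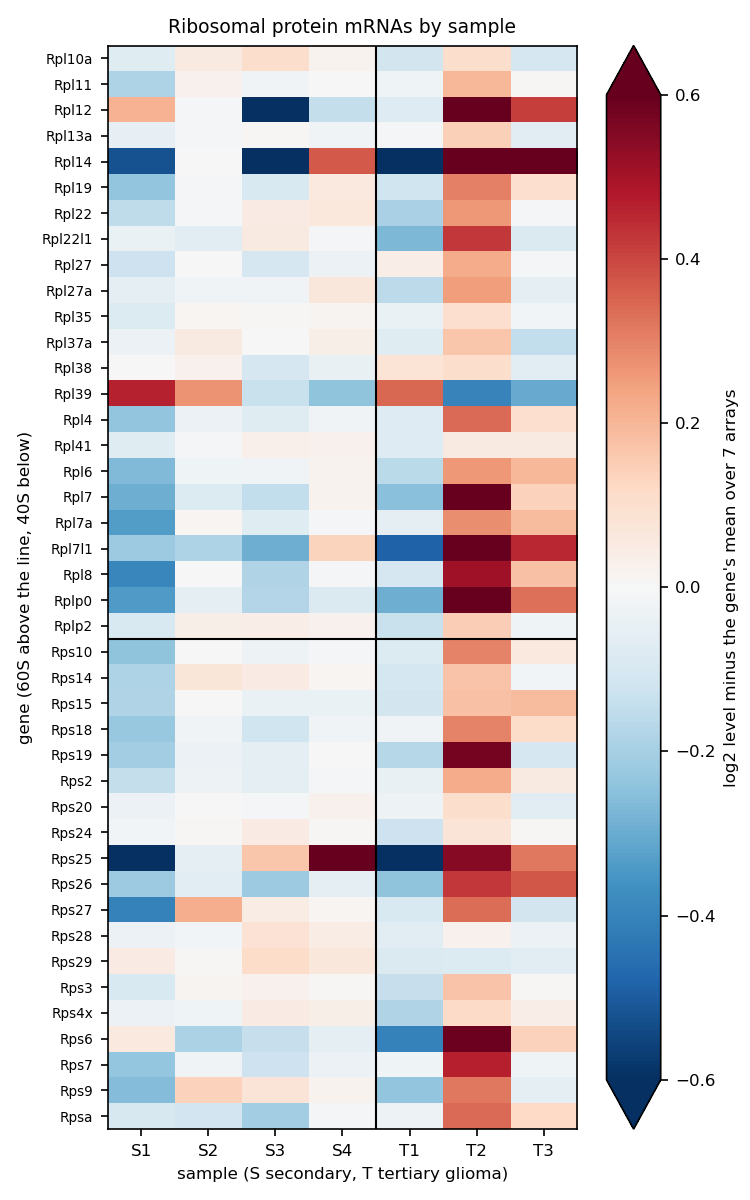
Log2 level of each tested ribosomal protein gene in the 7 samples, relative to the gene's own mean, with colours clipped at 0.6 in either direction. The column of tertiary glioma 2 is red in 40 of 42 genes, while secondary glioma 1 and tertiary glioma 1 are mostly blue.

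Log2 fold changes were larger on dim than on bright probes of the members, as a description with no test. The members' best probes had means between 5.14 and 12.81, with 35 of 42 at or above 10, while the brightest value of any probe on the arrays was 13.56. Brightness depends on probe sequence too, so it does not order the genes by mRNA amount, and the split by brightness that follows mixes probes of different genes. Among the 92 member probes above the dim filter, 0 were called (5.85% of all 27514 single-symbol probes were). The 64 probes at or above a level of 10, a level chosen after the values were seen, had a median log2 fold change of 0.053 and a maximum of 0.38, and 50 of the 64 were above 0. The 28 probes below it had a median of 0.27, and 26 of the 28 were above 0. Their maximum, 0.82, was an Rps9 probe on which tertiary glioma 1 alone stood high, as given below. An Rpl41 probe at 0.81 came next. Of all genes tested, with 1 probe each at any level, 60.7% were above 0, which does not compare dim with bright probes. Whether bright probes understate differences in these arrays was not tested.

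Within a gene the same pattern appeared. Of 22 members with more than 1 probe above the filter, 18 had the same sign over all their probes, and in 16 the dimmest probe had a higher log2 fold change than the brightest. In 11 genes these probes differed by over 4 in mean level, and in 10 of the 11 the dimmer was the higher.
For Rpl41, which encodes one of the shortest proteins known, the brightest probe was at 12.73, 12.80, 12.84 and 12.83 in secondary and 12.73, 12.86 and 12.86 in tertiary gliomas (0.017 ± 0.12 SE). Its dimmest probe was at 6.22, 5.78, 6.30 and 6.56 against 6.81, 6.64 and 7.63 (0.81 ± 0.28, adjusted p = 0.143 in limma over all probes). The groups overlapped on the first and did not on the second.
Rps20, a small subunit head protein, was at 12.03, 12.06, 12.05 and 12.09 against 12.03, 12.16 and 11.998 on its brightest probe and at 6.05, 5.57, 5.46 and 5.92 against 5.50, 7.13 and 6.34 on its dimmest (0.58 ± 0.36). Rps24 had 4 probes with means from 11.57 to 12.06 and log2 fold changes between -0.039 and 0.0066 a probe with a mean of 6.13 at 0.70 ± 0.23 and a probe with a mean of 4.65 at 0.061. Rps9 had a probe with a mean of 8.48 on which tertiary glioma 1 was at 10.53 and the other 6 samples between 8.04 and 8.25, a gap that its brightest probe (11.29 in tertiary glioma 1) did not show. The highest value was that of tertiary glioma 2 on 71 of the 92 probes.
By name, 11 of the 42 chosen probes are of the plain _at kind, 18 of the _a_at, 2 of the _s_at and 11 of the _x_at kind, and the _s_at and _x_at kinds can bind related transcripts. With plain _at probes alone 22 members were tested, 0 were called and the median log2 fold change was 0.22.

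**Figure D3:**
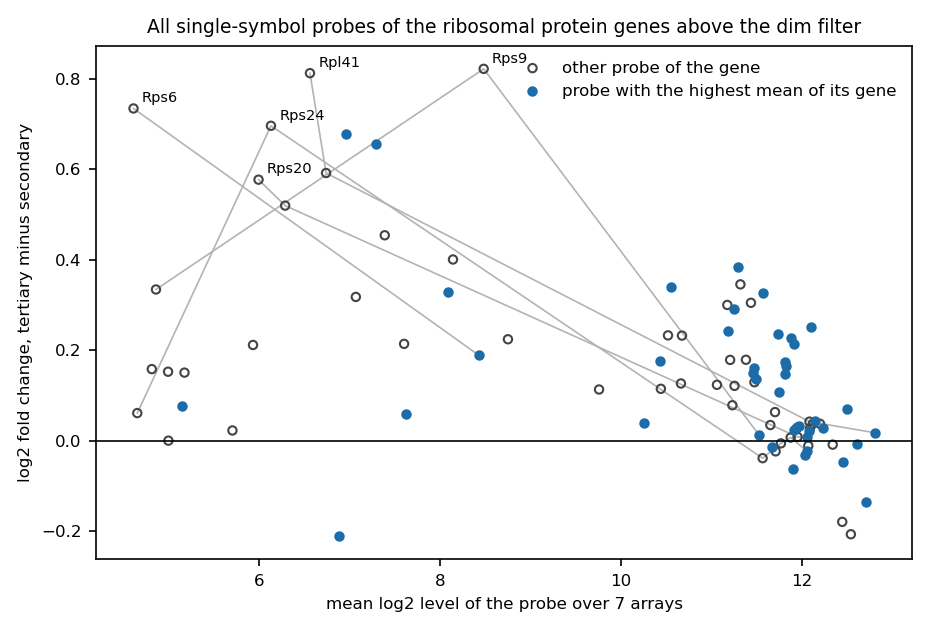
Mean log2 level of each single-symbol probe of the ribosomal protein genes over the 7 arrays against its log2 fold change, tertiary minus secondary, with lines joining the probes of Rpl41, Rps6, Rps9, Rps20 and Rps24. Probes below a level of 10 reach 0.82 and those above it stay at or under 0.38. The point at 0.82 is an Rps9 probe on which tertiary glioma 1 alone stood high.

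The members Rpl37 and Rps16, were read only by probes below the dim filter, with means of 3.06 and 2.10, and were not tested.

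Of 6 tested paralogues, Rpl22l1 and Rpl7l1 included, 0 were called (median log2 fold change 0.0047). Rps27l, a paralogue of Rps27, was at 10.60, 10.13, 9.94 and 10.31 in secondary and at 10.30, 10.76 and 10.31 in tertiary gliomas (0.21 ± 0.20, adjusted p = 0.559). Rps4l, a relative of Rps4x that the RefSeq gene table lists as a transcribed pseudogene, was at 4.88, 5.00, 4.40 and 4.52 against 4.27, 3.24 and 3.34, with no overlap (-1.09 ± 0.28, adjusted p = 0.0620), and tertiary gliomas 2 and 3 lay below the dim filter. In limma it was called without tertiary glioma 1 (-1.41, adjusted p = 0.00776) and with array weights (-1.32).
Rpl39l was at 3.46, 4.79, 5.39 and 5.05 against 3.90, 3.64 and 3.74 (-0.91 ± 0.42, adjusted p = 0.233). It was called only without secondary glioma 1, at -1.31 (adjusted p = 0.00830). Rpl3l, known from muscle, was at -0.029 ± 0.14, Fau, whose protein is cleaved to a small subunit protein, at -0.25 ± 0.16 and Rps3a1 at 0.050 ± 0.12. The member Rpl22l1 was at 10.21, 10.19, 10.31 and 10.24 against 9.98, 10.68 and 10.17 (0.039 ± 0.18).

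Other genes of ribosome production and translation were read against the same background. Of 54 tested ribosome biogenesis factors 1 was called higher and 0 lower, with a median log2 fold change of 0.41 and all 54 above 0. Riok2, a kinase that matures the small subunit, was at 7.06, 7.19, 6.58 and 6.997 in secondary and at 7.56, 8.09 and 7.76 in tertiary gliomas (0.85 ± 0.20, adjusted p = 0.0411). Every tertiary value lay above every secondary value. Its call was lost without any single sample other than tertiary glioma 1, with adjusted p from 0.0610 to 0.143.
RNA polymerase I and its factors, which transcribe ribosomal RNA, had 0 of 15 called (median 0.31). Polr1b was at 0.67 ± 0.28 and Polr1e at 0.59 ± 0.26. Chaperones and importers of ribosomal proteins had 0 of 16 called (median 0.35), with Bccip, a chaperone of Rpl23, at 0.56 ± 0.17 and the importin Ipo5 at 0.54 ± 0.17.
The list of translation factors and other genes with TOP mRNAs had 0 of 18 called (median 0.17). It was led by Btf3 (0.60 ± 0.17, adjusted p = 0.0883) and the histone chaperone Nap1l1 (0.63 ± 0.21). Initiation and elongation factors without TOP mRNAs had 0 of 24 called (median 0.40), led by subunits of the exchange factor eIF2B, Eif2b3 (0.85 ± 0.23, adjusted p = 0.0696) and Eif2b5 (1.10 ± 0.34, adjusted p = 0.101). Mitochondrial ribosomal proteins had 0 of 76 called (median 0.43). Differences between these lists were not tested. These lists' calls also move with tertiary glioma 1: without it Btf3, Nap1l1, Eif2b3, Eif2b5, Bccip and Ipo5 were each called higher.

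Of the regulators, 22 genes of the mTOR pathway and of TOP mRNA control were tested, with 0 called higher and 1 lower (median 0.19). Deptor, an inhibitor of mTOR, was at 5.98, 6.13, 6.54 and 5.20 in secondary and at 4.44, 4.77 and 4.63 in tertiary gliomas, with no overlap (-1.35 ± 0.30, adjusted p = 0.0333). Leaving out any 1 sample other than secondary glioma 4 ended this call (adjusted p from 0.0596 to 0.105), and with all its probes averaged it was at -0.66.
Eif4ebp1, a repressor of cap-dependent translation that mTOR inactivates, is named here after its values were seen. It was at 7.65, 8.82, 7.08 and 8.46 in secondary and at 9.68, 9.83 and 9.24 in tertiary gliomas, with no overlap. Its log2 fold change of 1.58 ± 0.41 was the largest of the list and was not called (adjusted p = 0.0609 in limma). Without secondary glioma 2 it was called higher (1.86, adjusted p = 0.0364), as it was with the dim filter at the 50th or the 75th percentile, and over the alternatives its adjusted p ran from 0.0364 to 0.197.
None of 11 Myc family genes was called in limma, with 1 at an unadjusted p under 0.05 (median -0.033), and Mxd1 was at -0.89 ± 0.34 and Mnt at -0.34 ± 0.16. Among 14 genes of ribosome quality control and stress 0 were called (median 0.15), with Pelo at 0.57 ± 0.18 and Usp10 at 0.58 ± 0.19.

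The means of these lists by sample are given side by side. The mean of the 54 biogenesis factors was 7.82, 8.02, 7.94 and 8.07 in secondary and 7.999, 8.83 and 8.42 in tertiary gliomas, with tertiary glioma 2 highest in 47 of the 54. The mean of 15 proliferation markers was 7.99, 7.19, 7.77 and 8.15 against 6.90, 9.23 and 9.25, so tertiary glioma 1 was the lowest sample and tertiary gliomas 2 and 3 the highest. The members' mean was 10.87, 11.02, 10.93 and 11.04 against 10.88, 11.31 and 11.09. Microglia and macrophage markers were at 10.43, 10.77, 11.20 and 10.69 against 6.75, 7.09 and 6.13. The part of either marker list in the members' values was not tested.

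**Figure D4:**
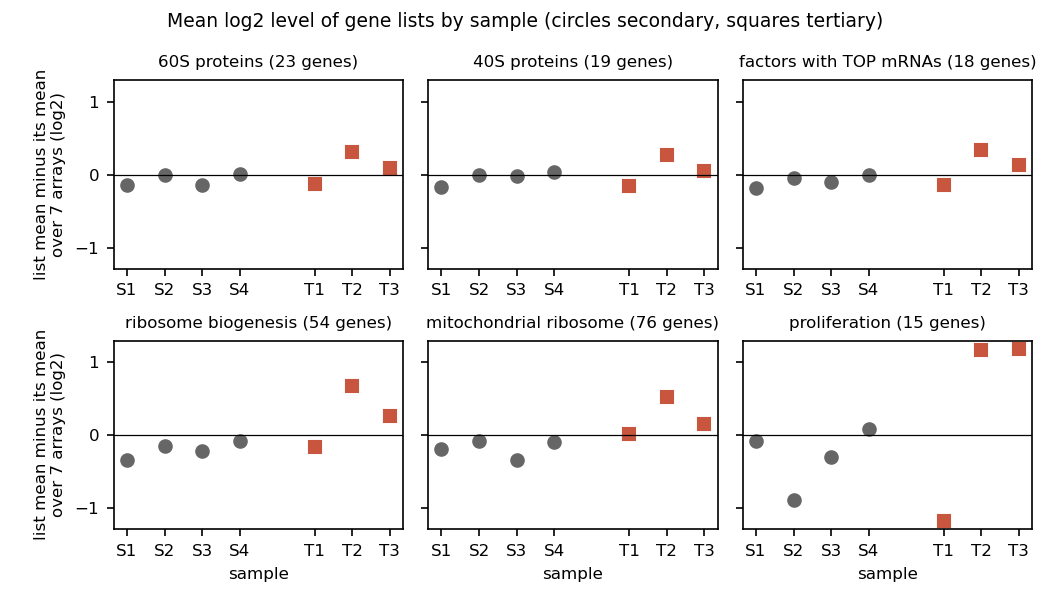
Mean log2 level of 6 gene lists in each sample, relative to the list's mean over the 7 arrays (circles secondary, squares tertiary glioma). Tertiary glioma 2 is the highest sample for both ribosomal subunits, TOP factors, biogenesis factors and mitochondrial ribosomal proteins, and tertiary glioma 1 is the lowest for proliferation markers.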

How the data were processed

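Per the labels' protocols, Trizol RNA of sorted cells was turned into cDNA with a NuGEN Ovation Pico kit and biotin-labelled. The deposited table holds log2 values that the authors made with RMA, per the submitters' processing notes. No software version or array build is given in the sources used here, and log2 was taken from the range of the values. Scan dates were not analysed here.

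Probes were named through the platform annotation: 34958 of 45101 had 1 symbol, and all 44 members had an identifier in the gene table of GRCm38.p6. A gene took its probe with the highest mean over 7 arrays. Genes under the 25th percentile of all probes (3.99) were left out. Tertiary and secondary gliomas were compared with limma 3.58.1 in R 4.3.3 (lmFit, eBayes, no covariate, Benjamini-Hochberg over 14454 genes, threshold 0.05). Members and lists were chosen with earlier results of these data known. Named were all called members, the 5 uncalled members at either end of the ranking by log2 fold change, some role groups, and the called or lowest-p genes of other lists. Tested on simulated data of 14454 genes, tertiary against secondary, the fit recovered 47% of changes of log2 1 and 87% of changes of log2 2, with 6 false calls. The simulated noise was independent between genes and held no shift shared by the genes of a sample. These rates therefore need not hold for the real arrays. Figures used matplotlib 3.10.9.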

Additional observations from a re-analysis of the deposited data

Results flagged for a closer look

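Of 47 sets of 4 secondary values examined (44 members and 3 list means), 6 had a sample apart from the other 3, and chance gives about 1 in 20. In 5 of the 6 it was secondary glioma 1, at the low end: Rpl35 at 12.15 (nearest other 12.24), Rpl6 at 11.55 (11.79), Rplp2 at 12.52 (12.64), Rps10 at 11.23 (11.44) and Rps3 at 11.82 (11.92). The other was Rpl37, below the dim filter, with secondary glioma 2 at 3.03 and the rest tied at 3.05. With that tie any other value would have been flagged, so the chance rate does not apply to it. The same arrays are behind all of these values, so they are not separate signs.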

How the results depend on the processing

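Over all alternatives run, 0 members were called lower, and 0 were called higher except without tertiary glioma 1. With each sample left out in turn the count of members called higher ran from 0 to 3, and the median log2 fold change from -0.010 to 0.18. With plain _at probes only the median was 0.22. The labels do not say whether same-numbered samples are paired. The deviations of same-numbered samples correlated at 0.036, -0.14 and 0.015. With so few arrays, these values cannot settle whether they are paired. With the replicate number as a block, which leaves secondary glioma 4 without a partner, 0 members were called, the median was 0.14, and Rplp2 was at 0.00089. Signs near 0 turned. Quantile normalisation gave Rpl41 -0.015, Rps24 0.0087 and Rps9 -0.0078. Median centring gave Rplp2 0.034, Rps24 0.017, Rpl37a 0.0089, Rps4x 0.027 and Rpl3l 0.011. Array weights gave Rplp2 0.00035, Rps24 0.0064, Rps20 -0.012, Rps4x 0.033, Rps27 -0.0015 and Rpl3l 0.013. Without secondary glioma 3 and tertiary glioma 1 together, Rplp2 was at 0.070, Rps24 at 0.044, Rpl10a at 0.0017, Rps4x at 0.086 and Rpl3l at 0.0019, and Rpl35 at 0.061, Rps19 at 0.32, Rpl22l1 at 0.21, Rps25 at 0.52 and Rps27 at 0.17 kept their sign. The mean of all probes gave Rps24 0.12 and Rps4x 0.099, and plain _at probes gave Rps24 0.70. With single samples left out, the ranges that crossed 0 were Rpl41 -0.0053 to 0.060, Rplp2 -0.082 to 0.057, Rpl35 -0.016 to 0.054, Rpl13a -0.017 to 0.087, Rpl27a -0.099 to 0.11, Rps24 -0.071 to 0.032, Rps20 -0.043 to 0.040, Rpl37a -0.12 to 0.033, Rpl22 -0.089 to 0.14 and Rps14 -0.048 to 0.090. Rpl10a ran from -0.13 to -0.024. The range also crossed 0 for Rps3 -0.054 to 0.10, Rps4x -0.075 to 0.072, Rps9 -0.14 to 0.13, Rps19 -0.061 to 0.31, Rpl22l1 -0.16 to 0.19, Rps6 -0.053 to 0.45, Rps25 -0.21 to 0.46, Rps27 -0.069 to 0.16, Rpl3l -0.11 to 0.046 and Rps3a1 -0.0084 to 0.094. The cause was not tested. Of 774 member values under alternatives 53 had another sign. Members read near the filter are limited by signal over background.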
